A study of Mus musculus with 12 samples.

Results

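Total heart RNA from Ptcd1 knockout (KO) mice was sequenced after treatment with CMC, a carbodiimide that adds a bulky group to bases, and without it. The comparison took in all libraries that the labels give as KO, 3 CMC-treated and 3 untreated, out of 12 in the series. The other 6 were the same 2 arms of RNA from wild-type (WT) hearts, 3 libraries each, and served here only to show where the KO result differed. All 4 groups shared the tissue, the removal of cytoplasmic ribosomal RNA with a Ribo-Zero kit and a TruSeq library. CMC treatment followed a published protocol that the labels name without its steps. The labels give no Cre driver, deleted exon, age or sex for the KO mice. They also do not say whether libraries of one group came from separate hearts, so p-values measure the spread between these libraries, which may be technical.

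CMC reacts with the ring nitrogen of uridine and guanosine and with both nitrogens of pseudouridine, the isomer of uridine found in snRNAs, snoRNAs, tRNAs and rRNAs. In the usual protocol alkali then removes it from uridine and guanosine, and the group left on pseudouridine halts or misleads reverse transcriptase. PTCD1 is a mitochondrial pentatricopeptide repeat protein, and the study's title ties it to a complex that matures the 16S rRNA of the mitochondrial ribosome.

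Ptcd1 itself had 23, 21 and 20 counts in CMC-treated KO libraries and 28, 17 and 19 in untreated KO libraries, against 71 to 103 in the WT libraries. The 16S rRNA, mt-Rnr2, took 8.29, 8.21 and 8.01% of mitochondrial counts in CMC-treated KO libraries and 8.90, 9.19 and 9.10% in untreated KO libraries. In WT libraries it took 63.4 to 65.7%. The KO libraries held 10611631 to 12462093 counts, of which 2683284 to 3107722 fell on nuclear genes. The cardiomyocyte marker Myh6 had 4482 to 5262 counts per 1000000 in the KO libraries, and the lung markers Sftpc and Scgb1a1 had 0 counts in all. The WT CMC-treated library of replicate 3 stood apart from its group, with counts more dispersed than between any other pair of replicates (chi-square per degree of freedom 2.08 and 2.43, against 1.12 to 1.39).

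After CMC treatment the reads of many small structured RNAs fell in KO hearts, and the decrease was unequal between them. The U2 snRNA copy Gm23971 fell most, and Scarna10, Snord17 and Rn7sk fell too. The most abundant U1-like copy was not called, and U11 snRNA and RNase MRP RNA rose slightly. Some of the RNAs on which this rests are printed as their annotated transcripts (GRCm38, GENCODE M21), with T in capitals because uridine is a base that CMC can modify.
Gm23971: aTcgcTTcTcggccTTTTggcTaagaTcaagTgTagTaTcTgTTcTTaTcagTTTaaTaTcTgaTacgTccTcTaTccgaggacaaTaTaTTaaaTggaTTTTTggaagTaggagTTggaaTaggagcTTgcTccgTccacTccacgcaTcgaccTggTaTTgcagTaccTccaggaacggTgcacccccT
Gm24265: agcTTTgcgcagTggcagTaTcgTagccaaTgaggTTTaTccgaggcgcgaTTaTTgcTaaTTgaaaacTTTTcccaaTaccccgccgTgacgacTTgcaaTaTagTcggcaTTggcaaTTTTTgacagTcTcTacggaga
Rnu12: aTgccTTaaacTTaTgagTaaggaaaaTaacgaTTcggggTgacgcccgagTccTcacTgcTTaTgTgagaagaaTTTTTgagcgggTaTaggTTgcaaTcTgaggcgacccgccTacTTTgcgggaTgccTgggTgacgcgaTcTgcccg
Gm22513: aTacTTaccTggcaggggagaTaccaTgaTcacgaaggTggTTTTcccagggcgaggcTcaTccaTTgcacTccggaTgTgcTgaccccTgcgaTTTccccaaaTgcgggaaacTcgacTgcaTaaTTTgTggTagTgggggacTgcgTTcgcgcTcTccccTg
Snord15a: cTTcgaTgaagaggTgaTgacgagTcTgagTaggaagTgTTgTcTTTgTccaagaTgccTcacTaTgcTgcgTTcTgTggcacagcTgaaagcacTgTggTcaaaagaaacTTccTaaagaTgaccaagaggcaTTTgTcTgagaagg
Snord17: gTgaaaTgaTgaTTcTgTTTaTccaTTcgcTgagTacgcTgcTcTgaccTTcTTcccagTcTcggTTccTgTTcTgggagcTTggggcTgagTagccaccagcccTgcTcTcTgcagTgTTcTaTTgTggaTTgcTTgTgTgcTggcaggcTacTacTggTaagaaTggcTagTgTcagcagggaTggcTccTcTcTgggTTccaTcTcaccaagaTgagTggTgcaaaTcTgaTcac
Snord118: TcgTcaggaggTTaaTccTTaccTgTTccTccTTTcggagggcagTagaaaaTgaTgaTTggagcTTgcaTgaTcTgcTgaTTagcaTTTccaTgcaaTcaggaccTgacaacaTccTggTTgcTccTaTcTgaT
Gm23971 (chr11:101645740-101645930, minus strand) is 191 bases long with 59 T, and matches the U2 snRNA gene Rnu2-10 at 191 of 191 bases. Gm24265 (chr5:115489459-115489599, plus strand) is an annotated snRNA with 40 T in 141 bases. Rnu12 (chr15:83149644-83149794, plus strand), the U12 snRNA, has 38 T in 151 bases. Gm22513 (chr12:54696782-54696945, plus strand) has 40 T in 164 bases and matches the U1 gene Rnu1b1 at 159 bases, and it is shown for contrast. It was not called with TMM scaling (log2 -0.09) and was called lower without scaling factors (log2 -0.23). Snord15a (chr7:99482785-99482932, minus strand) has 38 T in 148 bases, Snord17 (chr2:144265979-144266216, minus strand) 74 T in 238 bases, and Snord118 (chr11:69073427-69073561, plus strand) 42 T in 135 bases.

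The snRNAs, which form the core of the spliceosome, were tested one by one with edgeR's quasi-likelihood test at a false discovery rate of 0.05, fitted over the 11911 genes that passed the filter on low counts. Over all those genes 12.3% were called, 6.84% higher and 5.42% lower, with a median log2 change of -0.01. Of 16 snRNAs tested, 8 fell and 2 rose, with a median log2 change of -0.61. The filter asks for enough counts in 3 libraries, so a scarce RNA can pass it through its untreated libraries alone. With every gene of at least 1 count kept, 9 of 111 snRNAs fell and 2 rose (median log2 -1.06). Gm23971, the U2 copy, had 4.51, 3.36 and 3.67 counts per 1000000 scaled by TMM (CPM) in CMC-treated KO libraries, against 160, 143 and 149 CPM in untreated KO libraries. Every treated library was far below every untreated one. The change was 38.9-fold lower (log2 -5.28 ± 0.08 SE, edgeR adjusted p 5.92e-65) and the largest decrease among the 11911 genes tested. Gm25939, which matches Rnu2-10 at 188 of 191 bases, had 2.64, 1.31 and 1.54 CPM in CMC-treated KO libraries, against 34.6, 31.2 and 35 CPM in untreated ones. Copies this alike share reads, so the split of U2 reads between them is uncertain. Gm22973, which matches Rnu2-10 at 182 of 191 bases, had 2, 1 and 0 counts in CMC-treated KO libraries and 16, 24 and 12 counts in untreated ones. Gm25360, matching Rnu2-10 at 187 bases, had 1, 5 and 0 counts in CMC-treated KO libraries, against 23, 19 and 22 counts in untreated ones.

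Rnu12, part of the minor spliceosome, had 5.11, 4.57 and 7.24 CPM in CMC-treated KO libraries, against 23.5, 16.6 and 16.8 CPM in untreated KO libraries. The groups did not overlap, and the log2 change was -1.76 ± 0.13 (SE). Gm24265 fell further, with 7.58, 8.76 and 7.72 CPM after CMC and 55, 36.5 and 37 CPM without it (log2 -2.42). Rnu11, the U11 snRNA of the same minor spliceosome, rose slightly, with 48.8, 39.1 and 43.3 CPM after CMC and 40.8, 30.4 and 36.0 CPM without it (log2 0.29 ± 0.07 SE). That call was lost with DESeq2 (adjusted p 0.233), without untreated replicate 2 (log2 0.19, edgeR adjusted p 0.0826) and without scaling factors (log2 0.16, edgeR adjusted p 0.113). U1 snRNA pairs with the 5' splice site in the major spliceosome. Its most abundant annotated copy, Gm24305, had 416, 386 and 437 CPM in CMC-treated KO libraries and 430, 389 and 398 CPM in untreated ones. The groups overlapped, with a log2 change of 0.02 that became -0.11, and was called, without scaling factors. Gm22513 had 79.2, 83.3 and 90.8 CPM after CMC and 93.5, 84.3 and 91.7 CPM without it. Of 7 U1-like copies tested, the only call was for Gm23686, which rose with 29, 20 and 19 counts after CMC against 3, 3 and 4 counts without it.

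The small nucleolar and Cajal body RNAs guide methylation and pseudouridylation of rRNA and snRNA. None of those tested rose. Of 22 snoRNAs 12 fell, with a median log2 change of -0.74, and of 7 scaRNAs 4 fell, with a median of -0.88. Scarce ones among them could pass the filter through untreated libraries alone, so these shares and medians hold only for the RNAs tested. With every gene of at least 1 count kept, 13 of 112 snoRNAs fell (median log2 -0.13) and 4 of 20 scaRNAs (median -0.28). Scarna10 had 0.255, 0.186 and 0.386 CPM in CMC-treated KO libraries, against 3.74, 3.27 and 3.16 CPM in untreated KO libraries. It was 11.9-fold lower on 9 treated counts in all (log2 -3.58 ± 0.36 SE). Snord15a had 0.937, 0.746 and 0.579 CPM after CMC, against 5.73, 4.99 and 3.25 CPM without it (log2 -2.60 ± 0.27 SE). Snord17 had 7.15, 9.32 and 8.40 CPM after CMC, against 37.1, 34.5 and 33.6 CPM without it, which is 4.25-fold lower (log2 -2.09 ± 0.09 SE). Snord118, the U8 RNA needed for processing of the large-subunit rRNA, had 3.49, 4.38 and 4.73 CPM after CMC and 10.9, 8.35 and 8.98 CPM without it (log2 -1.17). In these RNAs every CMC-treated library lay below every untreated one. On a list of box C/D snoRNAs, the class that guides methylation, 3 of 3 tested fell (Snord17, Snord118 and Snord15a). On the box H/ACA list, the class that guides pseudouridylation, 1 of 6 fell. That one was Snora73b, with 19.0, 17.6 and 15.1 CPM in CMC-treated KO libraries and 22.8, 26.1 and 22.6 CPM in untreated ones. Snora73a had 13.2, 12 and 12.4 CPM after CMC and 13.2, 15.8 and 15.1 CPM without it, and was not called with TMM scaling. Without scaling factors it was called lower (log2 -0.36), and 3 of the 6 H/ACA RNAs fell. The long host transcripts that carry snoRNAs in their introns were called at 14.3%, near the 12.3% of all genes, with 2 of 14 lower, Mir22hg (log2 -0.59) and Gas5 (log2 -0.27). The Mir22hg call was lost in 4 of the 6 fits that left out 1 library (log2 -0.75 to -0.45), and the Gas5 call without CMC-treated replicate 2 (log2 -0.21) and with DESeq2 (adjusted p 0.0613).

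Other abundant non-coding RNAs transcribed by RNA polymerase III also split. Rn7sk, the 7SK RNA that holds the elongation factor P-TEFb inactive, had 1075, 1061 and 1079 CPM in CMC-treated KO libraries, against 2161, 2290 and 2286 CPM in untreated KO libraries. The groups were well apart, and Rn7sk was 2.10-fold lower (log2 -1.07 ± 0.03 SE). Rpph1, the RNA of the tRNA-processing enzyme RNase P, had 607, 669 and 717 CPM after CMC and 836, 879 and 872 CPM without it (log2 -0.38). Rmrp, the related RNase MRP RNA, moved the other way, with 411, 461 and 496 CPM after CMC and 402, 421 and 422 CPM without it (log2 0.14, edgeR adjusted p 0.01). That call was lost with DESeq2 (adjusted p 0.306), without scaling factors (log2 0.00) and when CMC-treated replicate 3 (log2 0.07) or untreated replicate 1 (log2 0.11) was left out. The vault RNA Vaultrc5 fell by 0.68 on the log2 scale. The 7SL RNA Rn7s1, of the signal recognition particle, had 135, 88.0 and 74.7 CPM after CMC and 119, 115 and 160 CPM without it. It was called lower (log2 -0.39) although the groups overlapped, and the call was lost without untreated replicate 3 (log2 -0.23) and with DESeq2 (adjusted p 0.49). The other 7SL gene, Rn7s2, also fell (log2 -0.27), a call lost without untreated replicate 3 (log2 -0.13) and with DESeq2 (adjusted p 0.228). The Y RNAs Rny1 and Rny3 were not called (log2 -0.15 and 0.05). Rny1 was called lower without CMC-treated replicate 3 (log2 -0.26), without untreated replicate 2 (-0.29) and without scaling factors (-0.28). In all, 5 of the 8 RNAs tested on this list fell and 1 rose (75% called, against 12.3% of all genes), while DESeq2 called 3 lower and 0 higher.

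**Figure D1:**
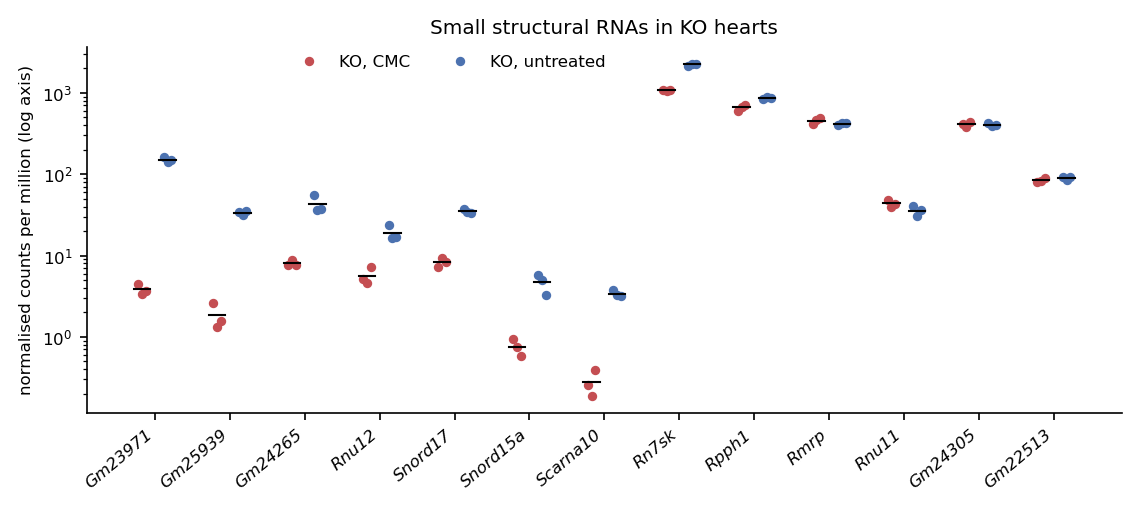
CPM of small structured RNAs in each KO library on a log axis, CMC-treated libraries to the left of untreated ones within each RNA and black bars at the means. The U2 copy Gm23971 is separated by 38.9-fold, Rn7sk by 2.10-fold, and the U1-like Gm24305 overlaps between the groups.

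As a share of all counts, these classes were lower in the CMC-treated libraries. snRNA took 548, 512 and 600 per 1000000 of all counts in CMC-treated KO libraries, against 927, 789 and 837 in untreated KO libraries, a ratio of 0.650. The snoRNA share was 115 ± 4.43 per 1000000 after CMC and 219 ± 10.9 without it (SD, n = 3 each), a ratio of 0.523, and the scaRNA ratio was 0.505. The 7SK, 7SL and related RNAs together took 2333, 2373 and 2580 per 1000000 after CMC and 4044, 4119 and 4281 without it. Neither group's range met the other's in any of these classes. With 3 libraries against 3 the smallest two-sided p of an exact permutation test is 0.1, which each reached. Mitochondrial RNA took a larger part of the treated libraries (75.4, 75.4 and 74.7% of counts, against 72.8, 73.3 and 73.0%). Relative to nuclear counts alone the ratios were 0.706 for snRNA, 0.568 for snoRNA and 0.636 for the 7SK and 7SL group. In WT hearts the ratio for snRNA was 0.991, and for scaRNA 0.563. Whether these ratios differ between genotypes was not tested.

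Across all genes, CMC treatment gave many small differences in KO libraries. Of the 11911 tested, 815 rose and 646 fell, with a median absolute log2 change of 0.33 among those called. A 2-fold change was passed by 27 of the higher and 42 of the lower ones. Without scaling factors 299 rose and 2143 fell and the median log2 change of all genes was -0.14, so directions here are relative to the median gene. DESeq2 called 378 higher and 211 lower. The protein-coding genes that rose held less U than those that fell, with a median of 22.2% U in the transcripts of 758 genes that rose, 28.3% in 557 that fell and 25% in all 11050. This relation was examined after values had been seen. Among 5 groups of genes by U content, in the one poorest in U (8.57 to 21.9%), the median log2 change was 0.12, with 336 genes higher and 21 lower. In the richest group (28.3 to 37.8% U) it was -0.11, with 58 higher and 274 lower. The middle group lay between, at -0.01, with 124 higher and 95 lower. Across genes the Spearman coefficient of U content with the log2 change was -0.35, against 0.23 for C, 0.16 for G, -0.04 for A and 0.01 for transcript length. These coefficients describe genes, which are not independent replicates, and base contents within a transcript depend on each other. In WT hearts the coefficient was -0.43 for U, 0.48 for C, 0.36 for G and -0.37 for A.

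**Figure D2:**
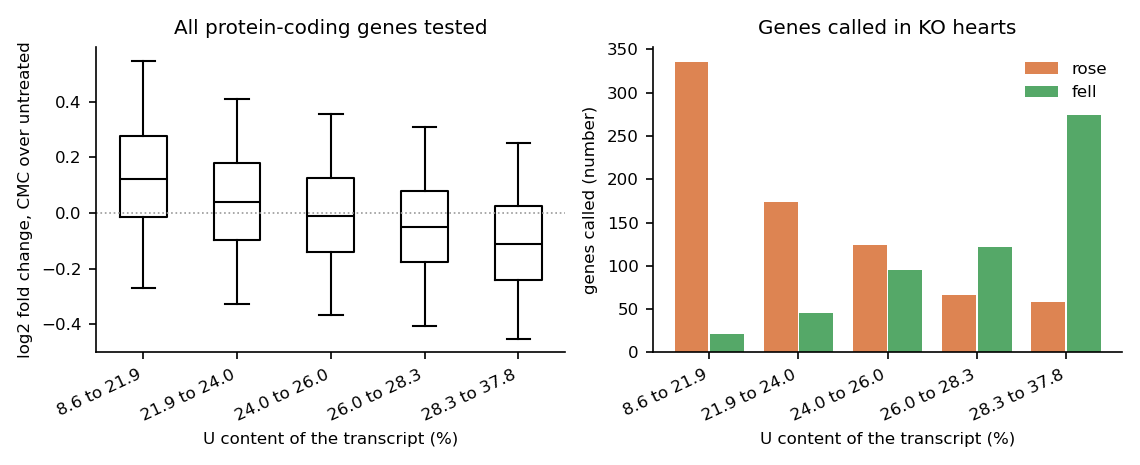
Log2 change after CMC treatment in KO hearts by 5 groups of transcript U content in percent among 11050 protein-coding genes (left; boxes span the quartiles, lines are medians, whiskers reach the 5th and 95th percentiles), and the number of genes that rose and fell in each group (right). The median declines in each step, at 0.12, 0.04, -0.01, -0.05 and -0.11 on the log2 scale.

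Among genes for ribosomes and the respiratory chain more fell than rose. Of 83 cytosolic ribosomal protein genes, 28 fell and 11 rose, and without scaling factors 51 fell and 6 rose. With TMM this is 47% called, against 12.3% of all genes, a share not matched for abundance. In the highest of 5 groups of protein-coding genes by mean CPM, 414 rose and 291 fell of 2210. Rps23, a small-subunit protein, had 28.6, 26.4 and 25.7 CPM in CMC-treated KO libraries and 49.2, 48.8 and 46.1 CPM in untreated ones (log2 -0.83 ± 0.06 SE). Rps27l, Rpl15 and Rpl30 fell by 0.81, 0.72 and 0.65 on the log2 scale, and Rpl21 rose by 0.42. Of 82 nuclear genes for oxidative phosphorylation subunits, 26 fell and 12 rose (46.3% called), and without scaling factors 49 fell and 5 rose. Atp5g1, one of the genes for subunit c of ATP synthase, had 73.8, 68.0 and 72.7 CPM after CMC and 115, 118 and 114 CPM without it (log2 -0.69 ± 0.05 SE). Atp5g2, another subunit c gene, and Sdhd, which anchors complex II, also fell (log2 -0.50 and -0.49). Ndufs5, a complex I subunit, rose, with 49.6, 49.2 and 42.7 CPM after CMC and 33.5, 31.2 and 30.9 CPM without it (log2 0.57 ± 0.06 SE). The median log2 change was -0.11 for the ribosomal list and -0.07 for the respiratory list, against -0.01 for all genes. Median U content was 26.9% in the respiratory genes that fell and 22.8% in those that rose, and 24.6% and 23.3% in the ribosomal ones.

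Among genes of heart muscle and stress the balance of calls depended on scaling. Of 25 genes for sarcomere and large muscle proteins, 9 rose and 3 fell, 48% called against 12.3% of all genes. Without scaling factors 3 of them rose and 10 fell. Des, the muscle intermediate filament, had 1070, 1123 and 1088 CPM after CMC and 834, 814 and 795 CPM without it (log2 0.43). Tnnt2, cardiac troponin T, rose by 0.30 on the log2 scale and Myh6, the alpha heavy chain of myosin, by 0.20, while Csrp3 and Tnnc1 fell (-0.17 and -0.16). Of 26 genes of the integrated stress response 5 rose and 2 fell (26.9% called), but 1 rose and 11 fell without scaling factors. Those that rose were the transcription regulators Cebpb (0.50), Nupr1 (0.30), Atf5 (0.28), Atf4 (0.27) and Ddit3 (0.21), and those that fell were Phgdh, which starts serine synthesis (-0.48), and Pycr1, which makes proline (-0.34). Leaving out 1 library ended the call for Pycr1 in 4 of 6 fits (log2 -0.39 to -0.26), for Cebpb (0.42 to 0.56) and Ddit3 (0.18 to 0.25) in 2, and for Nupr1 without CMC-treated replicate 1 (0.26). DESeq2 did not call Pycr1, Nupr1 or Ddit3, and without scaling factors Cebpb, Nupr1, Atf5 and Ddit3 were not called. The small heat shock gene Hspb6 had 288, 307 and 278 CPM after CMC and 181, 192 and 186 CPM without it (log2 0.64 ± 0.04 SE). Of 10 heat shock genes 2 rose and 2 fell (40% called). Of 9 immediate early genes Jun and Dusp1 rose (0.58 and 0.32) and Btg2 fell (-0.25), 33.3% of the list. The Dusp1 and Btg2 calls were each lost in 4 of the 6 fits that left out 1 library and with DESeq2. None of 8 genes of 16S rRNA maturation and none of 15 pseudouridine synthase genes was called by edgeR, though 2 of each list had an unadjusted p under 0.05, and 2 of each fell without scaling factors. DESeq2 gave an adjusted p for 1 and 3 of them and called none. Of 77 mitoribosomal protein genes 6 rose and 5 fell, 14.3% in all against 12.3% of all genes, and without scaling factors 1 rose and 17 fell. Mrpl42 rose, with 61.3, 59.7 and 60.7 CPM in CMC-treated KO libraries and 46.6, 45.9 and 45.8 CPM in untreated ones, and Mrps33 and Mrpl36 fell by 0.82 and 0.76 on the log2 scale. The calls for Mrps33 and Mrpl36 were each lost in 3 of the 6 fits that left out 1 library.

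Of 35 markers of cell types tested 10 were called, 28.6% against 12.3% of all genes. Calls were more frequent among abundant protein-coding genes. In the highest of 5 groups by mean CPM 414 rose and 291 fell of 2210, and in the lowest 21 and 15 of 2210. The 12.3% is not matched for abundance, here or for the other lists. Of 6 cardiomyocyte markers Tnnt2 and Myh6 rose and Pln and Actc1 fell, and the Actc1 call (log2 -0.09) was lost in 4 of the 6 fits that left out 1 library and with DESeq2. Of 4 endothelial markers Cdh5 rose (0.36), of 5 macrophage markers Cd68 (0.45, lost in 5 of those fits) and of 4 smooth muscle markers Myh11 (0.29), and of 4 fibroblast markers Col1a2 fell (-0.23). Of 5 erythroid markers Hba-a1 and Hbb-bs fell (log2 -0.60 and -0.38), and none of 3 adipocyte markers was called by edgeR or had an unadjusted p under 0.05. Summed, the erythroid markers took 333, 322 and 361 per 1000000 nuclear counts in CMC-treated KO libraries and 440, 458 and 437 in untreated ones, and their part in the other results was not tested. The lymphocyte markers Cd3e and Cd79a had 2 and 10 counts over the KO libraries. In such bulk RNA fewer cells of a type and less RNA per cell cannot be told apart. Of 8 long nuclear RNAs 62.5% were called, against 12.3% of all genes. Xist, the RNA that coats the inactive X, fell by 0.63, Neat1 by 0.23 and Malat1 by 0.22 on the log2 scale, and Airn and Kcnq1ot1 rose (0.37 and 0.14). Leaving out 1 library ended the Airn call in 5 of 6 fits (0.28 to 0.43) and the Kcnq1ot1 call in 3 (0.10 to 0.18). DESeq2 called neither of them, nor Xist (adjusted p 0.0583), and without scaling factors 3 of the 8 fell and 0 rose. Of 16 replication-dependent histone genes Hist1h1e and Hist1h2bc rose (0.33 and 0.24), 12.5% of the list, and each call was lost in 5 of those 6 fits and with DESeq2.

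Among genes with a name other than a Gm or Rik number that averaged at least 1 CPM and whose groups did not overlap, the largest increases after CMC were in the pseudogene Fabp3-ps1 and mt-Tm, the mitochondrial tRNA for methionine. Fabp3-ps1 had 9.11, 8.39 and 9.84 CPM in CMC-treated KO libraries and 3.24, 3.36 and 2.82 CPM in untreated ones (log2 1.53 ± 0.15 SE). A pseudogene shares reads with its parent gene, here one for the heart fatty acid binding protein, so the split between them is uncertain. The others rose by log2 0.96 to 1.14 and had at most 3.86 CPM in any library (Zfp628, Ubald2, Micall2, Car7, Bex3, Hmgb2, Ccdc171 and Sdk2). Leaving out 1 library ended the call in 5 of 6 fits for Micall2, in 4 for Ccdc171 and Sdk2, in 3 for Bex3 and Car7 and in 1 for Zfp628. After the small RNAs, the largest decreases were in the pseudogene Rps24-ps3 (log2 -1.70), in Timm8a1, an import chaperone of the mitochondrial inner membrane (-1.21), in the nuclear pore gene Nup35 (-1.13) and in BC052040 (-1.09). The Timm8a1 call was lost in 2 of those 6 fits and the BC052040 call in 4.

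Most mitochondrial mRNAs rose after CMC treatment in KO hearts, with the largest increases in those for complex I subunits and cytochrome b, while the rRNAs fell or were not called. Of 11 mitochondrial mRNA features 7 rose and 3 fell (90.9% called, against 12.3% of all genes). mt-Nd2 had 76957, 77597 and 72526 CPM in CMC-treated KO libraries and 48214, 49754 and 48497 CPM in untreated ones (log2 0.63 ± 0.02 SE). mt-Nd5 rose by log2 0.67, mt-Cytb by 0.58, the joint feature of mt-Nd4l and mt-Nd4 by 0.47 and mt-Nd1 by 0.44. mt-Co3 and mt-Nd3 fell by 0.23 and 0.22 on the log2 scale. mt-Co1, with 121363, 123634 and 118065 CPM after CMC and 115818, 118928 and 115920 CPM without it, was not called, but called higher without CMC-treated replicate 3 (log2 0.07) and lower without scaling factors (log2 -0.08). mt-Nd6, the one mRNA from the other strand, had 614, 545 and 513 CPM after CMC and 832, 889 and 858 CPM without it (log2 -0.62). The mapped depth over the mt-Nd6 span, which overlaps mt-Nd5 on the opposite strand, rose by log2 0.65. The files do not separate the strands there.

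The rRNAs behaved differently from each other. mt-Rnr1, the 12S rRNA, had 160237, 156060 and 151792 CPM in CMC-treated KO libraries and 169540, 175206 and 172090 CPM in untreated ones, and fell by 0.14 on the log2 scale, a call lost when all 12 libraries shared the fit (edgeR adjusted p 0.0594). mt-Rnr2 had 66284, 65755 and 61250 CPM after CMC and 61531, 65248 and 63213 CPM without it. These overlapped and gave a log2 change of 0.02 ± 0.03 (SE), and mt-Rnr2 was not called. It was called lower without scaling factors (-0.11) and higher without CMC-treated replicate 3 (0.06). As a share of all counts both rRNAs together took 21 ± 0.294% after CMC and 24.6 ± 0.256% without it (SD, n = 3 each), and the mRNAs took 54.1 ± 0.323% and 48.4 ± 0.124%.

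Few reads were counted to mitochondrial tRNA genes, so they were followed by mapped depth, tested with limma. Of 37 mitochondrial features, 83.8% were called. Depth fell over 19 of the 22 tRNA genes and rose over 1, mt-Te, whose log2 change of 0.12 was -0.015 when depth was scaled by total counts. mt-Te lies within the span of mt-Nd5, and mt-Ts1 within that of mt-Co1, each on the opposite strand. Depth was not split by strand, so it includes reads of those mRNAs there, and over mt-Nd5 it rose by log2 0.61. The values for mt-Te and mt-Ts1 thus cannot be read as changes of the tRNAs. Mean depth over mt-Tt, the tRNA for threonine, was 157, 141 and 147 in CMC-treated KO libraries and 347, 330 and 342 in untreated ones (log2 -1.09). mt-Ti, the tRNA for isoleucine, had a depth of 1469, 982 and 1018 after CMC and 3007, 2871 and 2772 without it (log2 -1.23). mt-Tl2 and mt-Ts2 fell by 1.63 and 1.41. mt-Tm differed between the measures, with 6.81, 5.78 and 5.40 CPM after CMC against 2.99, 2.58 and 1.88 CPM without it in the counts, and a depth change of -0.40 on the log2 scale.

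Deletions in reads from the mitochondrial genome were more frequent in every CMC-treated KO library, and in both rRNAs and mRNAs. There were 55.6, 48.2 and 54.4 deletions per 1000000 covered bases in CMC-treated KO libraries and 20.06, 20.04 and 20.02 in untreated ones. The ratio of the means was 2.63, and no treated library came near an untreated one (exact permutation test p = 0.1, the smallest possible). Outside runs of one base the rate was 45.6 after CMC and 11.4 without it, a ratio of 3.99. The ratio was similar in mt-Rnr2 (53.7 ± 4.65 against 21.4 ± 0.538 per 1000000, SD, n = 3 each), in mt-Rnr1 (48.1 against 19.2) and in the mRNAs (53.8 against 20.01). Insertions had a mean rate of 7.24 per 1000000 after CMC and 7.06 without it, and the groups overlapped (exact permutation test p = 0.5). mt-Nd3 had the highest deletion rate of the mRNAs, with 92.8, 88.6 and 94.2 per 1000000 after CMC and 28.7, 27.3 and 28.8 without it. Base 71 alone held 633, 550 and 548 of its 3399 deletions after CMC, and 6, 9 and 12 of 1315 without it. The rate of this gene after CMC thus rests largely on that base. mt-Co2 followed with 90.2, 80.0 and 88.2 against 24.5, 25 and 24.7. Of its 18248 deletions after CMC, base 252 held 1374, 1171 and 1137 and base 253 held 1369, 1173 and 1134. mt-Co3 had the lowest rate after CMC, with 39.2, 31.6 and 35.8 against 12.9, 13.1 and 13.2. In WT hearts CMC-treated libraries had 88.2, 107 and 59.7 deletions per 1000000 and untreated libraries 21.6, 20.5 and 21.3. The WT values spread widely, and replicate 3, the library that stood apart, was the lowest of the CMC-treated ones. A difference of these rates between genotypes was not tested.

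**Figure D3:**
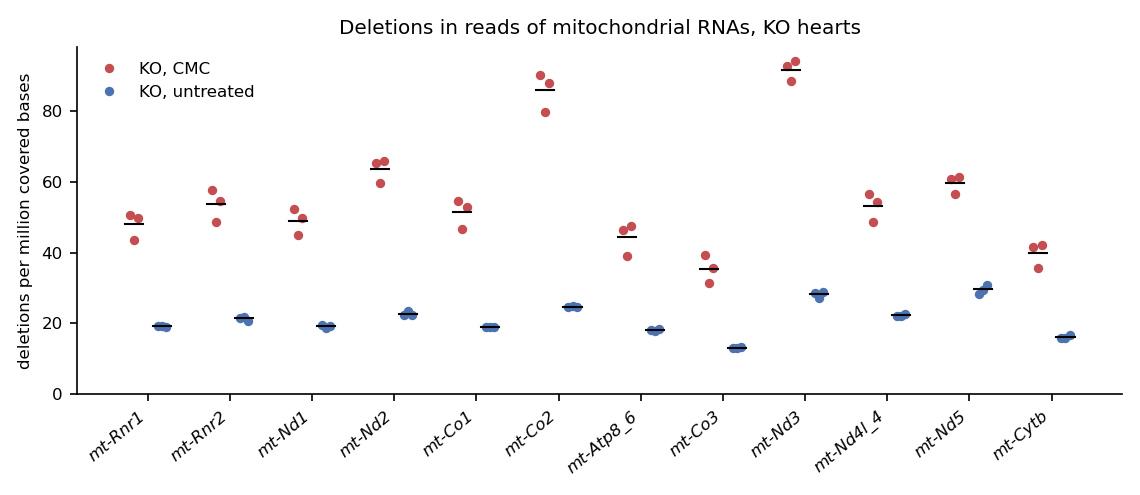
Deletions per 1000000 covered bases in each KO library, by mitochondrial gene, CMC-treated libraries to the left of untreated ones and black bars at the means. All rRNA and mRNA genes plotted have 3 treated libraries above 3 untreated ones, from mt-Co3 (31.6 to 39.2 after CMC) to mt-Nd3 (88.6 to 94.2). In mt-Nd3, base 71 alone held 633, 550 and 548 of 3399 deletions after CMC.

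Site by site, 1994 positions had at least 20 deletions over the 6 KO libraries and were tested with edgeR against the depth at each position. Of these 1050 rose and 1 fell, so that 52.7% were called either way, and the groups did not overlap at 58.3% of tested positions. The limit sums both groups, so a position can pass it through its CMC-treated libraries alone. These shares therefore hold only for tested positions, while 15689 positions had a depth of at least 100 in each KO library. Shares were low: the median at positions that rose was 0.0199% of reads after CMC and 0.00382% without it, 82 positions reached 0.1%, and 2 reached 1%. Both of those lie in long runs of A and were high without CMC too. The higher is between genes at chrM:5172, at 3.95 ± 0.130% after CMC and 3.11 ± 0.278% without it (SD, n = 3 each). By transcript, 763 of 1505 positions rose in the mRNAs, 149 of 252 in mt-Rnr1 and 134 of 231 in mt-Rnr2. At 1009 of the 1050 positions the deletions came from reads in both directions, and 624 lay next to another such position. A deletion is counted at each base it removes, so neighbouring positions can hold the same deletions and are not separate events. At the adjoining bases 252 and 253 of mt-Co2 the untreated libraries had the same counts, 264, 261 and 233.

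The sequences at the sites that stood out most are given with 12 bases on each side (mm10 chrM, plus strand, which is the RNA strand for these genes), with the tested bases in capitals. The first 6 hold the 10 positions with the smallest p-values in the mitochondrial genome, and the last 7 the 10 with the smallest in mt-Rnr2, the rRNA with the smaller share of counts in these hearts.
mt-Nd3 base 71: ttgcattctgacTcccccaaataaa
mt-Nd2 base 411: acaaaaaattgcTcccctatcaatt
mt-Co2 base 252: ctctacgcattcTAtatataatagac
mt-Co1 base 811: gaacctttcggcTAtataggaatagt
mt-Atp8_6 base 343: ataatgctaatcCAcacaccaaaagg
mt-Rnr1 base 104: ttaaaatttaagGAgagggtatcaag
mt-Rnr2 base 126: ctagtaccgcaaGggaaagatgaaa
mt-Rnr2 base 461: ctcttctggaacGgaaaaaaccttt
mt-Rnr2 base 463: cttctggaacggAAaaaacctttaat
mt-Rnr2 base 499: taacaaaacagcTTttaaccattgta
mt-Rnr2 base 793: aatgcctaaaggAaagatccaaaaa
mt-Rnr2 base 859: aaaaacatcaccTctagcattacaa
mt-Rnr2 base 951: agcataatcactTGttccttaattag
These windows lie, in the same order, at chrM:9517-9541, chrM:4312-4336, chrM:7251-7276, chrM:6123-6148, chrM:8095-8120, chrM:160-185, chrM:1207-1231, chrM:1542-1566, chrM:1544-1569, chrM:1580-1605, chrM:1874-1898, chrM:1940-1964 and chrM:2032-2057.

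At mt-Nd3 base 71, a U between C and a run of C, 0.394, 0.373 and 0.398% of reads carried a deletion in CMC-treated KO libraries, against 0.00326, 0.00519 and 0.00697% in untreated ones. The change was 75.0-fold (log2 6.23), over 137544 to 184108 reads per library. In WT hearts it had 0.589, 0.740 and 0.388% after CMC and 0.00851, 0.00810 and 0.00408% without it. Another U in the same setting, mt-Nd2 base 411, had 0.156, 0.127 and 0.157% after CMC, against 0.00117, 0.00239 and 0.00246% without it (69.0-fold), on 5 untreated deletions in all. Both held few deletions without CMC. The adjoining bases 252 and 253 of mt-Co2, in a repeat of UA, were different: base 252 had 0.446, 0.396 and 0.416% after CMC but already 0.115, 0.118 and 0.106% without it (3.71-fold). mt-Co1 bases 811 and 812, in another UA repeat, rose 4.78-fold at the first base, with 0.295 ± 0.0188% after CMC and 0.0618 ± 0.00436% without it (SD, n = 3 each). In the shared feature of mt-Atp8 and mt-Atp6, base 343 had 0.162% after CMC and 0.0173% without it on average. In mt-Rnr1, base 104 had 0.0552, 0.0537 and 0.0633% after CMC against 0.0124, 0.00931 and 0.0121% without it.

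In mt-Rnr2 the named positions had depths of 35023 to 168951 reads. At base 859, a U between C and C, 0.126, 0.0759 and 0.0738% of reads held a deletion in CMC-treated KO libraries, against 0.00345, 0.00520 and 0.00178% in untreated ones (25-fold). At the adjoining bases 951 and 952, a U and a G, the contrast was wide. Base 951 had 0.0843, 0.116 and 0.0911% after CMC and 0.00197% in untreated replicate 1, and no deletion in replicates 2 and 3. Pooled, 112 of 115290 reads after CMC and 1 of 148146 without it held a deletion, a ratio of 144 with a 95% exact interval of 25.3 to 5735 that covers counting error only. Bases 126 and 461, both G, rose 22.4-fold and 17.5-fold, with 0.0597 and 0.0861% after CMC and 0.00260 and 0.00471% without it. Base 499, in a run of 4 U, had the highest share in mt-Rnr2, with 0.306, 0.234 and 0.347% after CMC and 0.0918, 0.0902 and 0.120% without it.

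**Figure D4:**
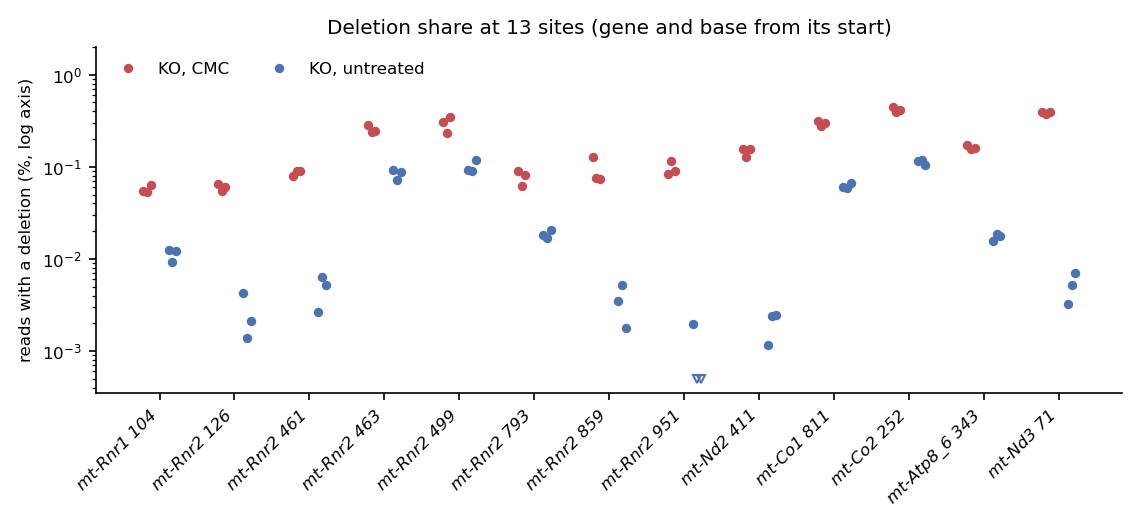
Percent of reads with a deletion at 13 sites in each KO library on a log axis, CMC-treated libraries to the left of untreated ones, with triangles for libraries that had 0 deletions. mt-Nd3 base 71 is 75.0-fold apart between the groups, and mt-Co2 base 252 is 3.71-fold apart.

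All 4 bases lost more reads to deletions after CMC. The rate per 1000000 covered bases was 63.4 after CMC and 24.1 without it at U, 60.4 and 23.5 at A, 46.3 and 17 at C, and 20.9 and 7.96 at G. Each base reached the smallest p of the exact permutation test (p = 0.1). Outside runs of one base, 112 of 135 tested C positions rose (83.0%), 198 of 255 U (77.6%), 27 of 38 G (71.1%) and 176 of 251 A (70.1%). The limit of 20 deletions admits positions through their treated libraries, so these percentages do not describe all positions of a base. Outside runs, rates also differed between neighbour settings. A U between 2 C, the CUC setting of mt-Nd3 base 71 and mt-Rnr2 base 859, had 148 ± 15.4 deletions per 1000000 after CMC and 15.3 ± 0.844 without it (SD, n = 3 each), and 60 of its 238 positions rose. CAC followed with 125 and 28.8, and UAU with 118 and 37.0. The lowest among settings with at least 20 positions was AGC, with 1.89 after CMC and 0.808 without it, and none of its 254 positions held enough deletions to be tested. A deleted base beside an identical one cannot be placed, so these rates leave runs out, but repeats of 2 bases remain.

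Most positions where mismatches rose after CMC were at C. Of 8562 positions with a mismatch share of at least 0.1%, edgeR called 22.8%, with 1340 higher and 612 lower, and 1272 of the 1340 were at C. Of the positions tested 3369 were at C, and 37.8% of those rose, against 1.75% at U, 1.26% at G and 0.555% at A. The limit of 0.1% is on the mean share over both groups, so a position can pass it through its CMC-treated libraries. These percentages therefore hold only for tested positions. C was read as U 686, 646 and 679 times per 1000000 C in CMC-treated KO libraries and 224, 224 and 224 times in untreated ones. This is a ratio of 2.99, and it was seen in mt-Rnr1 (2.79), mt-Rnr2 (2.96), the mRNAs (3.08) and the tRNA genes (2.10). It was singled out after values had been seen. The smallest p of the exact permutation test was reached (p = 0.1). U was read as C 150 times per 1000000 after CMC and 130 without it, a ratio of 1.2, and G was read as A 130 and 113 times. In the tRNA genes, however, G was read as A 360 times after CMC and 156 without it, a ratio of 2.30, and between genes the ratio was 2.03. C was read as A more often than as U, but 1050 times after CMC and 1107 without it, with overlapping groups. In mt-Rnr2 base 819, a C, had 0.187, 0.193 and 0.201% of reads mismatched after CMC and 0.0776, 0.0654 and 0.0683% without it (log2 1.46). In WT hearts C was read as U 754 ± 61.9 times per 1000000 after CMC and 230 ± 1.43 without it (SD, n = 3 each), a ratio of 3.29. A difference in these ratios between genotypes was not tested.

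**Figure D5:**
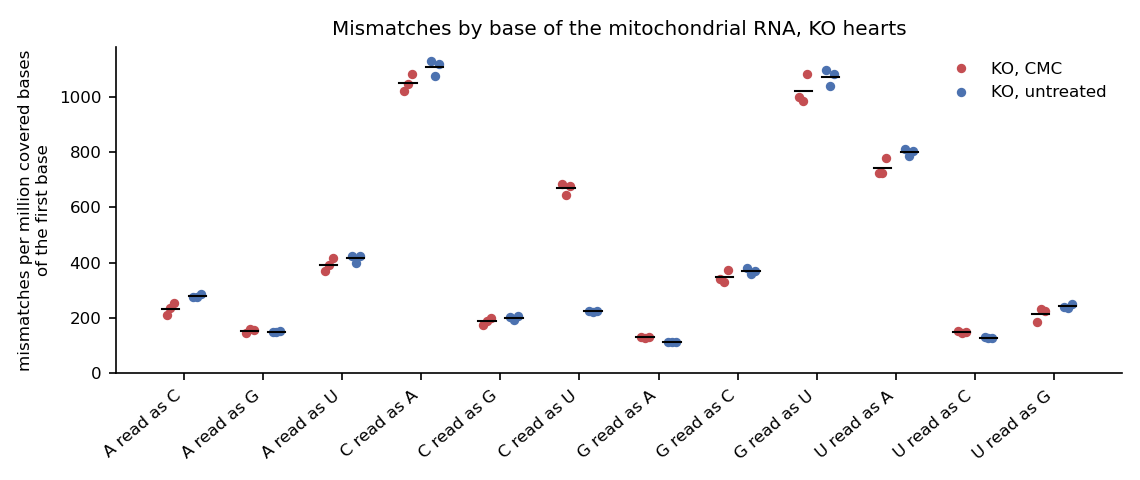
Rate of each base change in mitochondrial reads per 1000000 covered bases of the original base, KO, CMC-treated libraries to the left of untreated ones. C read as U is 670 ± 21.5 after CMC and 224 ± 0.149 without it (SD, n = 3 each), and each other change differs less between the groups. Black bars are means.

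Steps in mapped depth from one base to the next, where stops of reverse transcriptase would appear, changed at many positions by very little. limma called 53% of 15008 positions, 4248 higher and 3703 lower, but their median size was 0.573%, and 7 reached 0.5 on the log2 scale. The 7 included mt-Nd3 base 345 (log2 1.07) and mt-Rnr1 base 12 (-0.78), both near the ends of genes. Of 1048 positions with both a called deletion and a tested step, 261 had a lower step after CMC and 357 a higher one. In KO libraries 52 positions reached 900000 reads, all in mt-Rnr1, with a highest depth of 999184. Whether the authors' pileup had a depth limit is not stated in the labels.

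The CMC effect in KO hearts was set against that in WT hearts by the difference of the log2 changes, over 12 libraries. edgeR called 187 of 12788 genes (1.46%), 137 with a higher change in KO and 50 with a lower one. In WT hearts alone edgeR called 260 of 12098 genes (2.15%), against 12.3% in KO hearts. Those counts do not test the difference. Leaving out WT CMC-treated replicate 3 moved the 187 to 635, and DESeq2 gave 98. KO libraries held 485 to 1298 Xist counts and WT libraries 0 to 2, the pattern of female KO and male WT hearts, though the labels give no sex. Genotype therefore cannot be told apart from sex or from whatever else separates these mice. Of the 11 mitochondrial mRNA features 8 were among the calls. mt-Nd2 changed by log2 0.63 in KO and 0.05 in WT hearts, a difference of 0.58 (edgeR adjusted p 7.45e-05). mt-Cytb changed by 0.58 and 0.01, mt-Nd5 by 0.67 and 0.15, and mt-Nd1 by 0.44 and -0.05. The difference for mt-Rnr2 was 0.15 and was not called. Vaultrc5 fell in KO hearts (log2 -0.68) and rose in WT hearts (0.44), and Rpph1 changed by -0.38 and 0.19, a difference of -0.56 (edgeR adjusted p 5.95e-05). For U2 and 7SK the difference was not called: Gm23971 changed by -5.28 and -5.18 and Rn7sk by -1.07 and -1.28 on the log2 scale. Atp5g1 fell more in KO hearts (difference -0.52) and Ndufs5 and Hspb6 rose more (0.64 and 0.49).

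For deletions, 8 of 3027 positions (0.264%) differed between genotypes, all with a smaller increase in KO. That direction was not particular to them: over all 3027 the median difference was log2 -0.67, and 866 were positive. mt-Rnr2 held 7 of the 8 and mt-Rnr1 the other. The part of mt-Rnr2 in the 3027 is not given here, so the 7 of 8 cannot be set against a base share. In the test of KO libraries alone mt-Rnr2 held 231 of 1994 positions. mt-Rnr2 took 63.4 to 65.7% of mitochondrial counts in WT libraries and 8.01 to 9.19% in KO libraries. Its positions could thus pass the limit on deletions through WT libraries, and the part of this in their calls was not tested. At mt-Rnr2 base 802, in a run of 5 A, the share was 0.0337, 0.0231 and 0.0261% in CMC-treated KO libraries and 0.0145, 0.0112 and 0.0140% in untreated ones. In WT hearts it was 0.0824, 0.0942 and 0.0372% after CMC and 0.00722, 0.00702 and 0.00778% without it. WT replicate 3 was the lowest of its group. Without that library 151 positions were called. Under a minimum of 40 deletions 2 were, and without the positions that reached 900000 reads 2 were.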

How the data were processed

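RNA of mouse hearts, 3 KO and 3 WT libraries with CMC and 3 of each without, was measured by RNA-seq. The authors deposited read counts per gene and, for each base of the mitochondrial genome, read depth with counts of mismatched, deleted and inserted bases. Reads were handled with featureCounts 1.5.1, HISAT2 2.0.5, DESeq2 1.16.1 and SAMtools 1.5 on the build mm10, per the submitters' processing notes. The authors' own tables of KO against WT were not used.

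Genes of the 6 KO libraries were tested with edgeR 4.0.16 (filterByExpr, TMM scaling, quasi-likelihood test, Benjamini-Hochberg adjustment, threshold 0.05) in R 4.3.3. The difference from WT was the interaction contrast over 12 libraries. Deletions and mismatches were tested with edgeR on the counts per position with log depth as offset, at a depth of at least 100 in each library and at least 20 deletions in all or a mean mismatch share of 0.1%. Mean depth over features, scaled by the effective nuclear library size, and steps in depth, with a pseudocount of 1, were tested with limma 3.58.1. Class shares and rates per library were compared by two-sided exact permutation tests in Python 3.11.15 with scipy 1.17.1 and pandas 2.3.3. Rates of base changes left out 3 positions where over 50% of reads mismatched. Base counts follow the coding strand. The edgeR and limma fits were tested on simulated data.

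Symbols were found for 51718 of 51911 features in GENCODE M21, and transcripts for 11050 of 11050 protein-coding genes tested. Counts of replicates differed beyond sampling noise in every pair of a group (chi-square per degree of freedom 1.12 to 2.43), so none was counted as a repeat. Alternatives were other scalings and filters, DESeq2 1.42.0, a replicate block, a fit of all libraries and leaving out each library.

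The comparison and the gene lists were chosen with earlier results of these data known. Named genes are Ptcd1 and the mitochondrial rRNAs and mRNAs, the 10 largest called changes each way among genes of at least 1 CPM with a name other than a Gm or Rik number and no overlap of groups, up to 4 called members of each list or the 2 most abundant, and the 5 largest differences from WT each way by the same limits other than overlap. Named positions are those with the smallest p. Gm-numbered small RNAs, Rnu11, Rmrp, Snora73a, Rny1, Rny3, Rn7s2, Rpl21, Csrp3, Tnnc1, Atf4, Atf5, Ddit3, Jun, Dusp1, Mir22hg, Hist1h1e, Hist1h2bc, Cdh5, Cd68, Myh11, Col1a2 and Kcnq1ot1 were named after their values were seen. Intervals cover counting error only.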

Additional observations from a re-analysis of the deposited data

Results flagged for a closer look

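The CMC effect differed between KO and WT hearts for 187 genes, by the interaction term of edgeR's quasi-likelihood test over 12 libraries. Among mitochondrial mRNA features the KO effect was higher than the WT effect by log2 0.58 for mt-Nd2, 0.57 for mt-Cytb, 0.52 for mt-Nd5, 0.50 for mt-Nd1, 0.47 for the joint mt-Nd4l and mt-Nd4 feature, 0.45 for mt-Nd3, 0.40 for mt-Nd6 and 0.29 for the feature shared by mt-Atp6 and mt-Atp8. mt-Nd3 and mt-Nd6 fell after CMC in KO hearts, so for them the higher effect is a smaller decrease than in WT hearts. Other genes with a higher effect in KO were Sowahc (difference 1.5, with 0.35 in KO and -1.15 in WT hearts), Hspd1-ps3 (1.46), Rbm3-ps (1.03) and the zinc finger gene Zscan29 (0.87). The effect was lower in KO hearts for Id3, an inhibitor of DNA binding (difference -1.34, with -0.67 in KO and 0.67 in WT hearts), the mitoribosomal gene Mrpl36 (-1.20), Vaultrc5 (-1.13), the nuclear envelope phosphatase gene Ctdnep1 (-0.88) and the splicing gene Aar2 (-0.85). Of the 12 fits that left out 1 library, the call was lost in 10 for Zscan29 (difference 0.79 to 0.95), 9 for Sowahc (1.38 to 1.70) and Ctdnep1 (-1.01 to -0.68), 8 for Aar2 (-0.99 to -0.69), 6 for Rbm3-ps (0.92 to 1.15) and 4 for Mrpl36 (-1.42 to -1.002), and in 0 for Hspd1-ps3, Id3 and Vaultrc5. With a replicate block the Zscan29 and Ctdnep1 differences were lost (edgeR adjusted p 0.0509 and 0.0566). Among small RNAs the difference was -1.67 for Gm22422, -0.82 for the Y RNA Rny3, -0.72 for Snora73b and Gm22513 and -0.56 for Rpph1.

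The deletion effect differed at 8 positions by the same kind of test, while the median difference over all positions tested was log2 -0.67. In mt-Rnr2 the log2 difference was -2.21 at base 802 and -1.06 at base 801, -2.04 at base 471, -1.95 at base 59, -1.71 at base 841 and -1.52 at bases 136 and 182. In mt-Rnr1 it was -1.64 at base 201. Without WT CMC-treated replicate 3, which had the fewest deletions of its group, 635 genes and 151 positions were called. The part of that library and of other differences between the KO and WT mice in these results was not tested.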

How the results depend on the processing

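Over the alternatives run for single genes, positions, features and classes, 2523 values kept their direction and side of the threshold or moved within the spread, 203 lost a call, 16 gained one, 12 moved and 9 reversed. Without scaling factors, edgeR called 2442 genes in KO hearts, 12.2% of them higher against 55.8% with TMM, and 945 of the calls were shared. The log2 change then reversed to -0.11 for mt-Rnr2 and Gm24305, -0.083 for mt-Co1 and -0.12 for Acta1. DESeq2 called 589 genes, 64.2% higher, of which 588 were shared, and 98 genes for the difference between KO and WT. The share of other protein-coding RNA changed by log2 0.015 within nuclear counts. Depth scaled by total counts changed by log2 -0.11 over mt-Rnr2, -0.081 over mt-Co1, -0.015 over mt-Te and -0.12 over the control region. The KO and WT difference in deletions was called at 2 positions with a minimum of 40 deletions and at 2 without positions reaching 900000 reads. Mismatches were called at 593 positions with a minimum share of 0.2% and at 1172 with limma. The deletion rate ratio outside runs was 3.99. The causes were not tested.

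Leaving out 1 library gave 1021 to 1307 genes in KO hearts, 83 to 635 genes for the difference from WT, 808 to 975 deletion positions, 2 to 151 for their difference, 1613 to 1853 mismatch positions, 5846 to 8730 steps, 31 to 32 depth features, 11 to 12 classes apart, a deletion rate ratio of 2.56 to 2.74 and a C read as U ratio of 2.95 to 3.04.

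Same-numbered libraries had correlations of their deviations of r = 0.01, 0.06 and 0.01 over 6996 genes, and unlike-numbered ones of -0.04 to 0.03. KO replicates differed little beyond sampling noise (chi-square per degree of freedom 1.12 to 1.36), so this cannot show whether the numbers pair libraries. The main fits took the numbers as names only. With a replicate block edgeR called 1433 genes, 186 for the difference, 1021 deletion positions, 18 for their difference and 2056 mismatch positions, and limma 5579 steps and 31 depth features. For classes, deletion rates and base changes the exact sign-flip test of the same-numbered pairs cannot go below p = 0.25, which the rates reached. Low counts limit the precision for mitochondrial tRNA genes and for positions with few deletions without CMC.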

Other observations

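At 3 mitochondrial positions, 4528 and 4891 in mt-Nd2 and 9461 in mt-Nd3, between 99.6 and 100% of reads differed from the build mm10 in all 12 libraries, CMC-treated and untreated, KO and WT.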
